A study of Mus musculus with 2 samples.

Results

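Lysosomes digest proteins in an acid interior, and the genes described here encode the machinery that acidifies them, the proteases that work inside them and the glycoproteins that line their membrane. The members were all gene symbols that begin with Atp6v or Atp6ap, the symbols Lamp1 to Lamp5, and the symbols made of Cts and 1 letter, with Ctsg (a neutrophil granule protease) left out. By that rule 47 of the 24346 symbols in both expression tables were members: 26 V-ATPase genes, 17 cathepsins and 4 LAMP genes. The V-ATPase is a rotary proton pump in which a cytosolic V1 sector splits ATP and turns a ring in the membrane-embedded V0 sector, and that turning carries protons into the lumen. Cathepsins are proteases that are made as inactive precursors and mature and work in acid compartments, where in immune cells they also trim antigens, the invariant chain of MHC class II and granule enzymes. LAMP proteins are heavily glycosylated and make up much of the protein of the lysosomal membrane.

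The data were 2 libraries of mouse CD4+ T cells sorted from spleen at day 14, and both carried the title HFD-MI, from a study of CD4+ T cell subsets after that model. The probucol library came from the arm given probucol, a lipid-lowering drug with antioxidant action, and the untreated library from the arm without it. The column headers add HypoE, a term left unexplained in the labels, and the genotype, age and number of animals, the dose of probucol and the starting point of the day count were not given in the sources used here. The study title concerns remodeling after myocardial infarction, so the comparison asks how the RNA of these T cells differed with the drug. Each arm had 1 library, so no difference has a replicate check and no p-value was computed; a 95% interval below covers counting error only, with PCR copies counted as if they were separate molecules.

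The values were FPKM, fragments scaled to transcript length and library size, so levels of different genes can be set side by side. The steps between low values put the probucol library at about 1.039e+07 fragments and the untreated library at 1.038e+07, and 1 FPKM of a 1-kb transcript stood for about 7.86 and 7.90 fragments. Symbols above 0 numbered 14289 with probucol and 16876 untreated. The 7 T cell markers in the tables summed to 3752 FPKM in the probucol and 3747 FPKM in the untreated library, against 16.1 and 19.9 FPKM for the CD8 pair Cd8a and Cd8b1. Markers of other spleen cells were present in both libraries and differed between them. The B cell list summed to 70.7 and 28.9 FPKM with all 7 compared members higher with probucol, and the macrophage and monocyte list to 195 and 185 FPKM. The neutrophil list summed to 1077 and 960 FPKM, and the erythroid list to 219 and 865 FPKM. In bulk RNA, fewer cells of a type and less RNA per cell cannot be told apart.

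Of the 47 members, 39 were above 0 in each library, against 14289 with probucol and 16876 untreated of all 24346 symbols. A mean of at least 1 FPKM over both, the floor used for comparing genes, was reached by 32 members and by 10663 of all symbols. The 32 comprised 18 V-ATPase genes, 12 cathepsins and 2 LAMP genes, and 27 of them had a mean of at least 10 FPKM. Ratios were taken as the log2 of FPKM plus 1, and 2-fold on that scale was the call. Atp6v0c and Ctsl were called higher with probucol, 2 of 32 members, against 1.62% of the 10663 genes compared. Atp6v0d2 alone was called lower, 1 of 32, against 1.98% of all genes. The means of Ctsl (8.15 FPKM) and Atp6v0d2 (2.18 FPKM) were under 10 FPKM, where calls were more common. Within 2-fold lay 96.4% of all genes compared and 97.9% of those at 10 FPKM or more. Counted by direction alone, 12 members had a ratio above 1 against 52.7% of all genes, and 20 had a ratio below 1 against 47.3%. The counting interval lay wholly above 1 for 6 members against 29.0% of all genes with an interval, and wholly below 1 for 15 members against 24.2%.

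Most of these genes were close between the libraries, as were most of all genes compared. Of the 32 compared members, 22 (68.8%) were within 1.2-fold and 28 (87.5%) within 1.5-fold, against 60% and 88.5% of all genes compared. Within 2-fold were 29 members (90.6%), against 96.4% of all genes. Among genes with a mean of at least 10 FPKM, 21 of 27 members (77.8%) were within 1.2-fold against 69.7% of all such genes. All 47 together summed to 3471 FPKM in the probucol and 3664 FPKM in the untreated library, which was 0.465% and 0.483% of all FPKM in each library. The median log2 ratio was -0.08 over the 32 members and 0.02 over all genes.

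**Figure D1:**
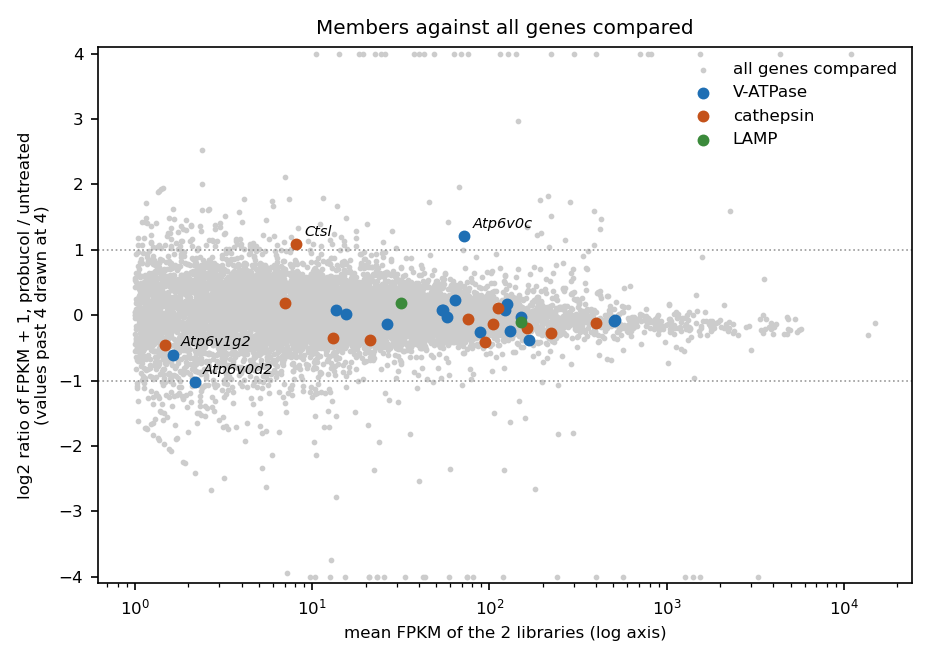
Mean FPKM of both libraries (log axis) against the log2 ratio of FPKM plus 1, probucol over untreated, for the 10663 genes compared in gray and the 32 members in colour by group; dotted lines mark the 2-fold call. Atp6v0c and Ctsl lie above the upper line, Atp6v0d2 lies below the lower line, and the other 29 members lie between them.

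The 3 groups had different medians. Of the 18 V-ATPase genes compared, 8 had a ratio above 1 and 10 below, with a median log2 ratio of -0.03 and sums of 2136 and 2188 FPKM. The pseudogene Atp6v0c-ps2, at 144 and 188 FPKM, is among them and makes up much of the gap between these sums. Among the 12 cathepsins compared, 3 had a ratio above 1 and 9 below, with a median of -0.17 and sums of 1156 and 1290 FPKM. Lamp1 and Lamp2, the LAMP genes compared, pointed in opposite directions. Over all genes compared, 52.7% had a ratio above 1 and 47.3% below. Counting intervals lay above 1 for 3 V-ATPase genes and below 1 for 7, and for cathepsins above 1 for 2 and below 1 for 7. Over all genes with an interval, 29.0% lay above 1 and 24.2% below. No test of a difference between the groups was possible with 1 library per arm. The V-ATPase median was -0.0008 with a floor of 5 FPKM and 0.05 with no floor, so its sign depended on the floor, while the cathepsin median lay between -0.14 and -0.18 in every setting tried.

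**Figure D2:**
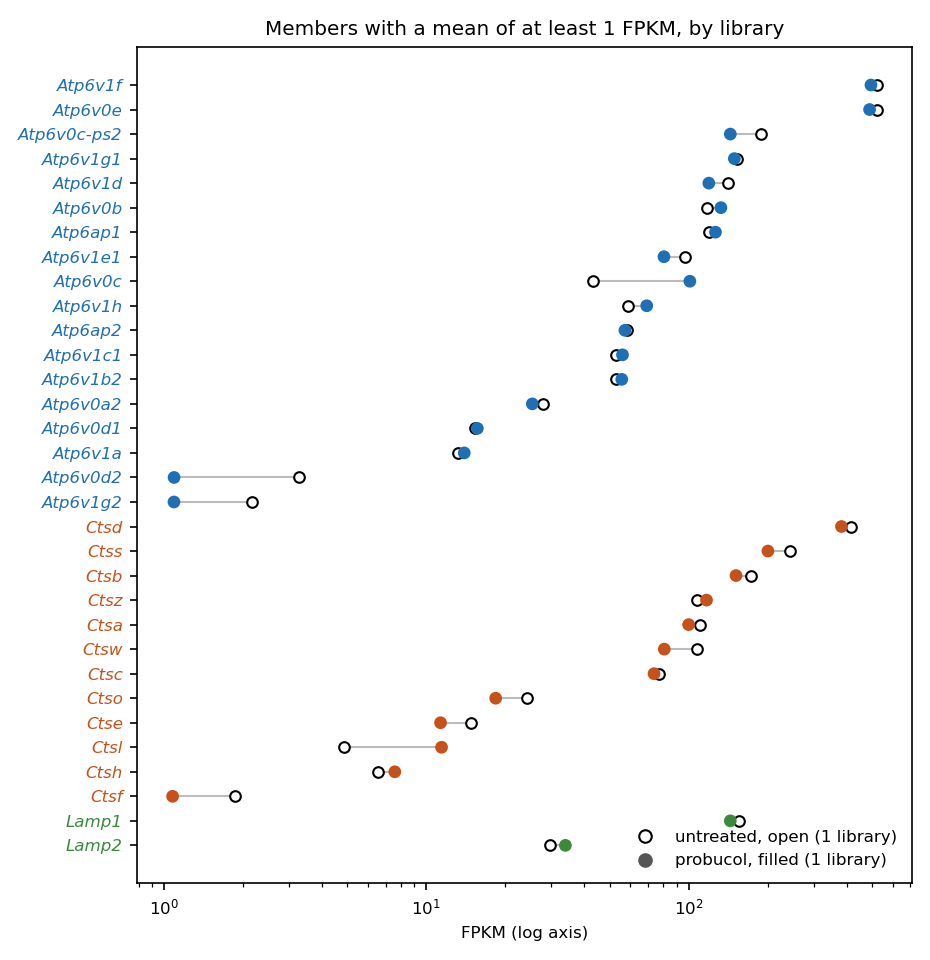
FPKM on a log axis of the 32 members with a mean of at least 1 FPKM, 1 row per gene in order of level within its group; open circles are the untreated library, filled circles the probucol library, and colour marks V-ATPase (blue), cathepsins (orange) and LAMP genes (green). Atp6v1f, Atp6v0e and Ctsd stand highest, and long connecting lines mark Atp6v0c, Atp6v0d2, Atp6v1g2, Ctsl and Ctsf.

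The V1 sector holds the ATP-splitting head and the stalks that join it to the membrane. Of its 13 genes in the tables, 9 were compared, and their sum was 1041 FPKM in the probucol and 1092 FPKM in the untreated library. The catalytic subunit A, Atp6v1a, reached 13.9 FPKM in the probucol and 13.2 FPKM in the untreated library, which is a ratio of 1.06 (95% counting interval 0.936 to 1.19). Its partner in the head, subunit B2 (Atp6v1b2), stood at 55.6 and 52.7 FPKM, which is a ratio of 1.06 (0.980 to 1.14). For both subunits of the ATP-splitting ring the interval included 1. The head is built from equal numbers of A and B subunits, while the FPKM of Atp6v1b2 was the higher of the pair in both libraries.

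The rotor and the outer stalks held the V1 genes that were lower with probucol beyond counting error. Subunit D, the central shaft (Atp6v1d), reached 119 FPKM in the probucol and 141 FPKM in the untreated library, 1.18-fold lower (1.13 to 1.23). Subunit F (Atp6v1f), which sits on the same shaft, was the most abundant V-ATPase transcript at 496 and 522 FPKM, higher than 97.9% of all genes compared, and its ratio of 0.950 had an interval that included 1 (0.899 to 1.005). Subunit E1 (Atp6v1e1), an outer stalk part, stood at 80.5 and 96.8 FPKM, which is a ratio of 0.832 (0.760 to 0.910). Its stalk partner G1 (Atp6v1g1) was at 149 and 153 FPKM with a ratio of 0.980 (0.909 to 1.06). The shaft subunit D and the stalk subunit E1 thus lay below 1, while F and G1, which bind them, were within counting error of 1.

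The V1 subunits that regulate coupling to the membrane were at or above their untreated level. Subunit C1 (Atp6v1c1), which clamps the stalks to V0 and leaves when the pump comes apart, stood at 56.0 and 53.0 FPKM, which is a ratio of 1.06 (0.967 to 1.15). Subunit H (Atp6v1h), which is needed for activity and keeps a detached V1 from wasting ATP, reached 69.2 FPKM in the probucol and 58.8 FPKM in the untreated library, 1.18-fold higher (1.08 to 1.28). Atp6v1h was the V1 gene whose interval lay above 1. The rarer isoform G2 (Atp6v1g2), known from neurons, was at 1.09 and 2.17 FPKM, an estimated 14 and 29 fragments, and was 1.99-fold lower with a wide interval (1.06 to 4.22). Its exons overlap 144 bp of Nfkbil1 on the other strand, which was at 11.4 and 14.6 FPKM, and reads of overlapping genes could not be told apart without strand. The Atp6v1g2 transcript that GENCODE pairs with RefSeq shared no stretch of 50 bases with another annotated gene.

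The V0 sector carries the protons: a ring of c and c'' proteolipids turns against the large a subunit, subunit d caps the ring, and subunit e is a small membrane protein beside it. Of its 10 symbols 7 were compared, 3 with a ratio above 1 and 4 below, and their sums were 911 and 918 FPKM. Both the counts and the sums include the pseudogene Atp6v0c-ps2, described below, at 144 and 188 FPKM. Its gap between the libraries was wider than that of the sums, so the sums do not give the direction of the coding genes alone. Subunit e (Atp6v0e) reached 490 FPKM in the probucol and 522 FPKM in the untreated library, which is a ratio of 0.939 (0.893 to 0.987), and like Atp6v1f it was above 97.9% of all genes. The ring protein c'' (Atp6v0b) stood at 133 and 118 FPKM, which is a ratio of 1.13 (1.03 to 1.23). The main form of subunit d, Atp6v0d1, stood at 15.7 and 15.4 FPKM, which is a ratio of 1.02 (0.841 to 1.23). The most abundant member of the sector was therefore slightly lower, the c'' proteolipid slightly higher and the d1 cap within counting error.

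Atp6v0c, the proteolipid that supplies most of the ring, gave the highest ratio of the V-ATPase genes compared, and it shares its coding sequence with a near-identical copy in the tables. It reached 101 FPKM in the probucol and 43.4 FPKM in the untreated library, an estimated 979 and 422 fragments, 2.33-fold higher (2.08 to 2.62), or 1.204 on the log2 scale. Atp6v0c is a gene on the minus strand of chromosome 17 (GRCm38, chr17:24163866-24169702). Atp6v0c-ps2, which the rule also includes, is annotated as a processed pseudogene on the plus strand of chromosome 6 (chr6:37806086-37806550), a copy of the coding sequence without introns. It reached 144 FPKM in the probucol and 188 FPKM in the untreated library, 1.31-fold lower (1.14 to 1.499), so the copy lay on the other side of 1.

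Reads from the coding sequence of the gene fit the copy almost equally well, which is why both are shown. The 465 bp of the pseudogene align along the whole coding sequence of Atp6v0c with 1 difference (99.8% identity), T111C with the gene's base first and positions counted from the first base of the start codon, and the identical run after it is 354 bp long. The first 120 bases of each, in GENCODE transcripts of GRCm38, with the differing base in capitals, are:
Atp6v0c: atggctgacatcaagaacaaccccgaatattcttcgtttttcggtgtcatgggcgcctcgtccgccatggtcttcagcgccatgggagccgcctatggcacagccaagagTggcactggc
Atp6v0c-ps2: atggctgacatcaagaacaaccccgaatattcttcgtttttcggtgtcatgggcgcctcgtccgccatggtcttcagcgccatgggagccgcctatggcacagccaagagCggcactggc
Of all stretches of 50 bases, 88.0% of those in the pseudogene also occur in Atp6v0c, and 32.3% of those in the Atp6v0c transcript occur in the pseudogene. Of the 32 compared members, 25 share no such stretch with another gene of the tables. That count leaves out annotated genes that are not in the tables. Stretches shared with those made up 36.6% of Ctsd, 19.2% of Atp6v1g1, 18.2% of Atp6v1f and 10.8% of Atp6v0a2. How the authors' software divided reads that fit both is not given in the sources used here.

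Taken as 1 gene, the pair gave a smaller difference. The summed FPKM of Atp6v0c and Atp6v0c-ps2 was 245 with probucol and 232 untreated, a ratio of 1.06, and the share of that sum on Atp6v0c was 41.2% and 18.7%. The summed estimated fragments were 1345 and 902, a ratio of 1.499 (1.38 to 1.63). The sums weigh the pair differently because FPKM divides by length and the pseudogene is shorter than the 1183-bp transcript of the gene. The direction was higher with probucol in both sums, but the 2-fold call was lost in both. Whether the division of reads between gene and copy contributed to the 2.33-fold value was not tested.

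The large subunit a has several isoforms that send the pump to different membranes. The rule includes Atp6v0a1, Atp6v0a2 and Atp6v0a4 but leaves out the a3 isoform, whose symbol is Tcirg1 and which is best known from osteoclasts and lysosomes. Atp6v0a2 reached 25.4 FPKM in the probucol and 27.8 FPKM in the untreated library, which is a ratio of 0.912 (0.845 to 0.983). Tcirg1 stood at 18.9 and 15.3 FPKM, which is a ratio of 1.24 (1.08 to 1.42). Over the subunit's summed FPKM, a2 made up 56.0% with probucol and 63.4% untreated, and a3 41.8% and 34.9%. Atp6v0a1 lay just under the floor with a mean of 0.863 FPKM and supplied 2.11% and 1.76% of the sum. Atp6v0a4, the form of kidney and inner ear, was at 0 in both libraries.

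**Figure D3:**
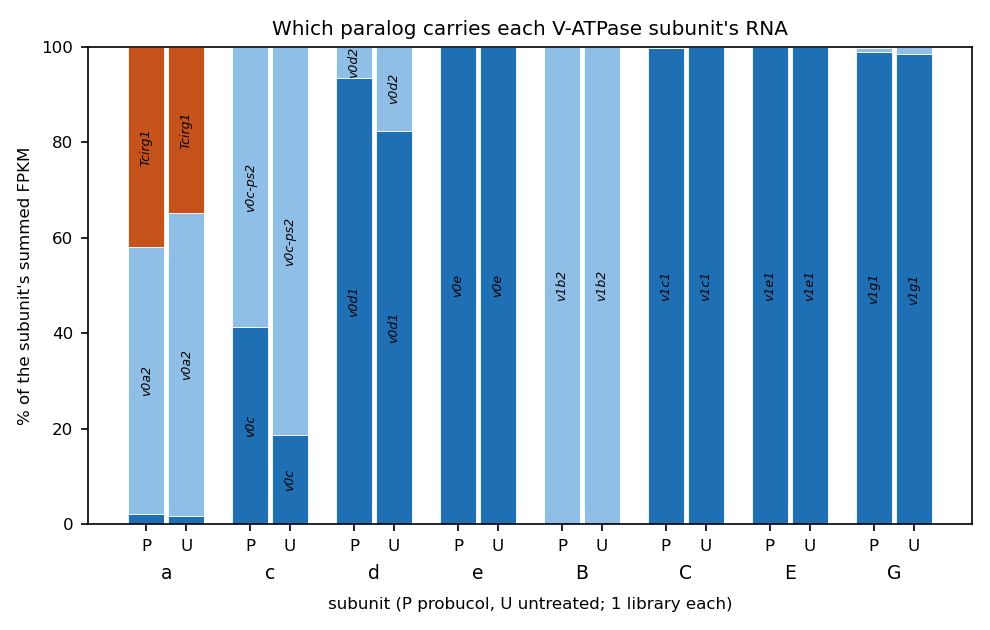
Share (%) of each V-ATPase subunit's summed FPKM that came from each of its paralogs, in the probucol (P) and untreated (U) library; subunit a includes Tcirg1, which lies outside the naming rule, and subunit c includes the pseudogene Atp6v0c-ps2. The bars of a, c and d differ between libraries, for example 6.52% and 17.5% of subunit d from Atp6v0d2, while B, C, E, e and G came almost wholly from 1 paralog each.

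Subunit d was the other subunit with more than a trace of a second paralog. Atp6v0d2, an isoform known from osteoclasts and macrophages, reached 1.09 FPKM in the probucol and 3.26 FPKM in the untreated library, an estimated 25 and 76 fragments, 2.99-fold lower (1.90 to 4.96) and -1.03 on the log2 scale. Its share of subunit d was 6.52% with probucol and 17.5% untreated. Atp6v0d1, given above, differed by less than counting error. Of the macrophage and monocyte markers compared, 8 of 11 were higher with probucol. The sum of that list, given above, was close between the libraries, and most of it was Lyz2 at 125 and 132 FPKM. The median log2 ratio of the 11 was 0.30. The dendritic cell list summed to 5.76 and 6.53 FPKM, with both of its compared members lower with probucol, Xcr1 at 0.992 and 1.86 FPKM and Cd209a at 2.91 and 3.05 FPKM, while Itgax, Clec9a and Batf3 were at 0 in the untreated library and had 10, 1 and 1 fragments with probucol. Whether these cell types contributed to the Atp6v0d2 value was not tested.

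Every other subunit came from 1 isoform. Atp6v1e1 and Atp6v1b2 supplied all of subunits E and B in both libraries, with the testis form Atp6v1e2 and the kidney form Atp6v1b1 at 0. Atp6v1g1 supplied 99.0% and 98.5% of subunit G, and Atp6v1c1 99.9% of subunit C with probucol and all of it untreated. Both libraries thus carried nearly all RNA of these subunits in the widely expressed form.

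Accessory proteins help assemble and sort the pump. Atp6ap1, also called Ac45, reached 127 FPKM in the probucol and 120 FPKM in the untreated library, which is a ratio of 1.06 with a counting interval whose lower end lay at 1 (1 to 1.12). Atp6ap2, known as the prorenin receptor, stood at 57.2 and 58.2 FPKM, which is a ratio of 0.982 (0.906 to 1.06). Atp6ap1l was at 0 in both. The interval of Atp6ap2 included 1, and that of Atp6ap1 only just reached it.

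**Figure D4:**
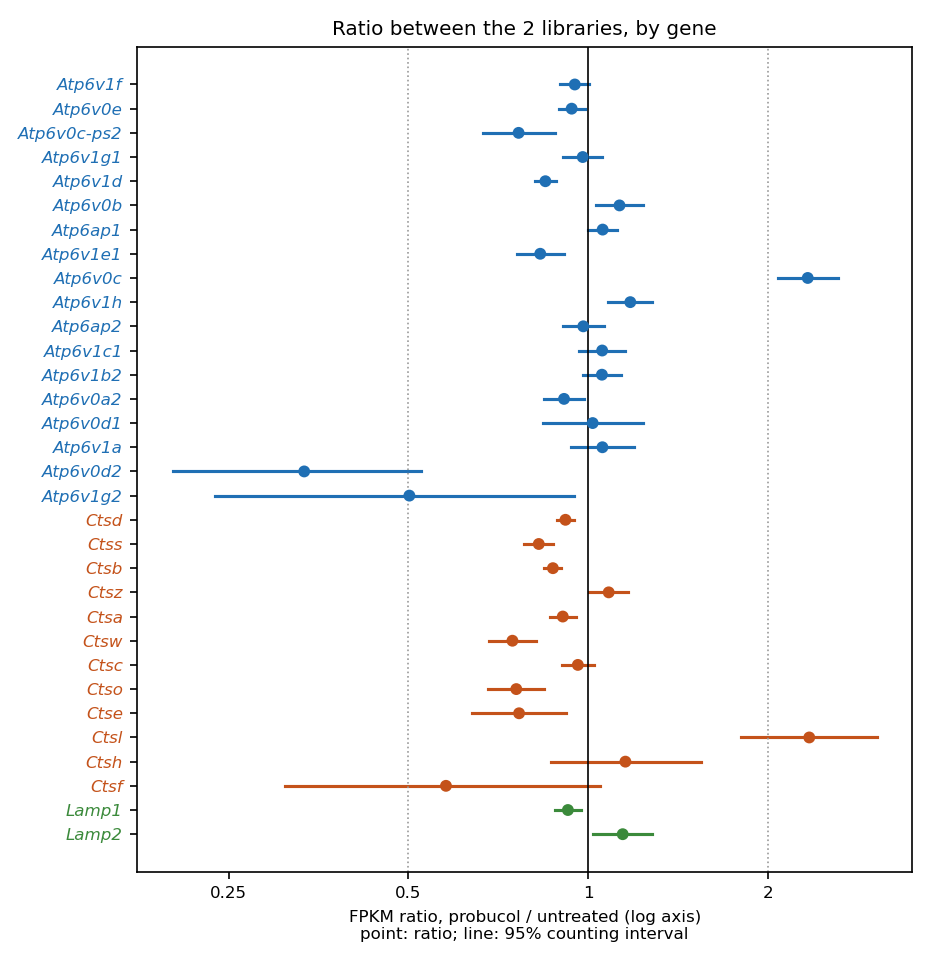
Ratio of FPKM, probucol over untreated (log axis), for the 32 members, with a 95% exact counting interval from estimated fragments as a line; the intervals leave out the spread between animals. Atp6v0c (2.33) and Ctsl (2.35) stand to the right of the 2-fold line, Atp6v0d2 to the left, and most cathepsins lie just left of 1.

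The cathepsins fall into cysteine, aspartic and serine proteases. The cysteine group had 10 genes apart from the rodent placental ones, 9 of them compared, with 3 ratios above 1 and 6 below and sums of 663 FPKM in the probucol and 747 FPKM in the untreated library. Cathepsin S (Ctss), which removes the invariant chain from MHC class II and works outside the most acid compartments too, led them at 201 FPKM in the probucol and 243 FPKM in the untreated library, 1.21-fold lower (1.14 to 1.28). Cathepsin B (Ctsb), a general lysosomal protease that also clips dipeptides from the carboxyl end, was at 152 and 174 FPKM, 1.14-fold lower (1.11 to 1.18). The annotated transcripts of Ctsb overlap 774 bp of Fdft1 on the other strand, which was at 11.0 and 9.27 FPKM. The most abundant endopeptidases of the class were thus both lower with probucol, while the B cell and macrophage marker sums, given above, were higher. The part of those cells in the values was not tested.

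Among other cysteine exopeptidases, ratios lay on both sides of 1. Cathepsin Z (Ctsz), a carboxypeptidase, reached 117 FPKM in the probucol and 108 FPKM in the untreated library, which is a ratio of 1.08 (1.004 to 1.17). Cathepsin C (Ctsc), the dipeptidyl peptidase that activates granzymes and other granule proteases, stood at 73.8 and 76.8 FPKM, which is a ratio of 0.961 (0.903 to 1.02). Cathepsin H (Ctsh), an aminopeptidase, stood at 7.58 and 6.56 FPKM, which is a ratio of 1.16 (0.868 to 1.55). Of these exopeptidases, Ctsz had an interval just above 1, and those of Ctsc and Ctsh included 1.

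Cathepsin W (Ctsw), a protease of natural killer and cytotoxic T cells held in the endoplasmic reticulum, had the largest fold among cathepsins lower with probucol at 10 FPKM or more. It reached 80.8 FPKM in the probucol and 108 FPKM in the untreated library, 1.34-fold lower (1.22 to 1.47). Natural killer markers, all 7 above 0 in both libraries, summed to 57.6 and 54.3 FPKM. Most of that sum was Prf1, perforin, at 49.9 and 36.3 FPKM. Of the 6 compared, Prf1 and Klrb1c were higher with probucol and 4 were lower, with a median log2 ratio of -0.73. The lower ones were Klrd1 at 1.22 and 6.22 FPKM, Klrk1 at 0.785 and 2.38, Eomes at 2.77 and 4.50, and Gzma at 0.150 and 3.28. The CD8 genes Cd8a, at 0.139 and 0.276 FPKM, and Cd8b1, at 15.9 and 19.6 FPKM with a ratio of 0.814 (0.674 to 0.986), were both lower with probucol, though the counting interval of Cd8a included 1. Whether cytotoxic cells contributed to Ctsw was not tested. Cathepsin O (Ctso), a little studied relative, was at 18.4 and 24.2 FPKM, 1.32-fold lower (1.18 to 1.47).

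Cathepsin L (Ctsl) was the cathepsin that was at least 2-fold higher with probucol. Ctsl is a strong lysosomal endopeptidase, and its gene lies on the minus strand at chr13:64359337-64370890 (GRCm38). It reached 11.4 FPKM in the probucol and 4.87 FPKM in the untreated library, an estimated 200 and 86 fragments, 2.35-fold higher (1.81 to 3.05), or 1.08 on the log2 scale. The annotation also places a processed pseudogene (Gm49230, 395 bp) and an antisense gene (Gm47123, 1742 bp) over exons of its transcripts. The Ctsl transcript that GENCODE pairs with RefSeq shared no stretch of 50 bases with these or any other annotated gene. The authors' gene models are not known. The ratio of Ctsl was thus opposite to those of Ctsb and Ctss, and at a level more than 10-fold below theirs in both libraries. B cell markers were higher with probucol by a similar factor: the list's sum ratio was 2.45, Cd79a was at 20.7 and 8.48 FPKM, while Pax5 was at 0 in both. The macrophage and monocyte sum ratio was 1.06, and most of that sum was Lyz2 at 125 and 132 FPKM. Over the 11 compared, log2 ratios ran from -0.14 (Spic) to 0.73 (Csf1r) with a median of 0.30. Counting intervals lay above 1 for 4 of them and below 1 for 0. The part of B cells or macrophages in the Ctsl value was not tested.

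The aspartic cathepsins were both lower with probucol. Cathepsin D (Ctsd), which starts the breakdown of many proteins and of other cathepsin precursors, was the most abundant protease of the set at 383 FPKM in the probucol and 417 FPKM in the untreated library, 1.09-fold lower (1.06 to 1.13), and above 97.3% of all genes. Cathepsin E (Ctse), an endosomal relative, was at 11.3 and 14.8 FPKM, 1.30-fold lower (1.09 to 1.56). The single serine carboxypeptidase, cathepsin A (Ctsa), also protects beta-galactosidase and neuraminidase in the lysosome. Its exons overlap Pltp and Neurl2 on the other strand, both under 3 FPKM in each library. Ctsa reached 100 FPKM in the probucol and 110.2 FPKM in the untreated library, 1.10-fold lower (1.05 to 1.16). All cathepsins above 100 FPKM in both libraries were lower with probucol except Ctsz, and Ctsd was the highest in each library.

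Lamp1 and Lamp2 line the same membrane, and Lamp2 also serves chaperone-mediated autophagy. Lamp1 reached 144 FPKM in the probucol and 156 FPKM in the untreated library, 1.08-fold lower (1.03 to 1.14). Lamp2 stood at 33.9 and 29.7 FPKM, which is a ratio of 1.14 (1.02 to 1.28). The intervals lay on opposite sides of 1, and their summed FPKM with Lamp3 and Lamp5 was 178 and 186. Lamp1 shares 249 bp of exon with Grtp1 on the other strand, which was at 1.73 and 0.906 FPKM.

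The remaining members were low or absent. Atp6ap1l, Atp6v0a4, Atp6v1b1, Atp6v1e2 and Ctsm were at 0 in both libraries, 5 members in all. Ctsj, Ctsq and Ctsr, placental cathepsins of rodents, were at 0 with probucol and at 0.470, 0.0890 and 0.266 FPKM untreated, which is an estimated 5, 1 and 3 fragments. In the reverse direction, Atp6v0e2, Atp6v1c2 and Lamp5 were at 0 untreated, with 5 fragments for Atp6v0e2 and 3 for Lamp5 in the probucol library. Over all 24346 symbols, fewer were above 0 with probucol (14289) than untreated (16876). Ctsf, a widely expressed cysteine cathepsin, lay just above the floor at 1.08 and 1.86 FPKM, which is a ratio of 0.578 whose interval included 1 (0.311 to 1.05). The bone protease Ctsk was at 0.292 and 0.290 FPKM, the dendritic cell form Lamp3 at 0.0320 and 0.0318 FPKM, and Atp6v1g3 at 0.358 and 0.119 FPKM. Fragment counts this small carry a wide counting error, and no fold is given for them.

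Many lysosomal genes share a promoter element, the CLEAR motif, which holds the E-box CACGTG and is bound by TFEB and TFE3. RefSeq promoter windows (GRCm38.p6), from 250 bases before to 50 after the gene start, were matched for 35 of the 47 members and 21 of the 32 compared. CACGTG, which reads the same on both strands, was in 9 of the 21 (42.9%), namely Atp6v0b, Atp6v0d1, Atp6v0e, Atp6v1a, Ctsa, Ctsd, Ctsf, Ctsl and Lamp1, against 12.2% of the 8132 compared genes with a window. With a flanking T, TCACGTG on either strand, it was in 7 of the 21 (33.3%) against 7.40%. The TCACGTG matches are a subset of the CACGTG matches. Not matched were Atp6ap1l, Atp6v0a2, Atp6v0c-ps2, Atp6v0d2, Atp6v1b2, Atp6v1c1, Atp6v1g1, Atp6v1h, Ctsb, Ctse, Ctsh and Ctsw.

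The windows below show the element in 1 member or more of each group, each read in the gene's direction with CACGTG in capitals; Lamp1 is shown for its 4 copies. They lie at chr8:13159075-13159160 (plus strand) for Lamp1, chr4:117887330-117887390 (minus) for Atp6v0b, chr16:44139360-44139415 (minus) for Atp6v1a, and chr7:142388042-142388077 (minus) for Ctsd:
Lamp1: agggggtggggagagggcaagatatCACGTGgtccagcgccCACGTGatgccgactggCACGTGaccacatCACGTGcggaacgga
Atp6v0b: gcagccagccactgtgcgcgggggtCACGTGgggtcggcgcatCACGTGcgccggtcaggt
Atp6v1a: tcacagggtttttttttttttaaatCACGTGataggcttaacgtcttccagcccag
Ctsd: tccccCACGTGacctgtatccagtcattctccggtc
The 4 copies of Lamp1 begin between 61 and 15 bases before its RefSeq start. For Atp6v0b, Atp6v1a, Ctsa, Ctsd and Ctsl, GENCODE annotates transcripts that begin upstream of the RefSeq start, so their windows are promoters by RefSeq only. The copy of Ctsl, 236 bases before its RefSeq start and with no flanking T or A, falls within the GENCODE gene given above. Members with the element were found on both sides of a ratio of 1: Ctsl, Atp6v0b, Atp6v0d1 and Atp6v1a above, and Lamp1, Ctsd, Ctsa, Atp6v0e and Ctsf below. A match to these letters is a description of the window, not of binding.

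The factors that read this element differed between the libraries in opposite directions. Tfeb reached 10.3 FPKM in the probucol and 17.1 FPKM in the untreated library, 1.65-fold lower (1.39 to 1.96). Tfe3 stood at 14.1 and 10.9 FPKM, which is a ratio of 1.30 (1.12 to 1.51). In the list of the TFEB family and mTORC1 regulators at the lysosome, 8 of 18 compared genes had a ratio above 1 and 10 below, with a median log2 ratio of -0.01. Lamtor1, an anchor of the mTORC1 scaffold, stood at 104 and 112 FPKM, which is a ratio of 0.926 (0.847 to 1.01). The list as a whole was centred near 0 while Tfeb was its lowest ratio.

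Other lysosomal enzymes were spread about evenly around 1. Of 35 lysosomal hydrolases compared, which digest sugars, lipids and nucleic acids as well as proteins, 19 had a ratio above 1 and 16 below, with a median of 0.02 and sums of 1165 and 1184 FPKM. The asparaginyl protease legumain (Lgmn), which cleaves cathepsin precursors, stood at 21.9 and 19.6 FPKM, which is a ratio of 1.11 (0.962 to 1.29). The serine carboxypeptidase Scpep1 stood at 14.3 and 9.36 FPKM, which is a ratio of 1.53 (1.26 to 1.86). Hexa, a subunit of beta-hexosaminidase, was at 55.0 and 77.8 FPKM, 1.41-fold lower (1.30 to 1.54), and the sphingomyelinase Smpd1 at 19.6 and 28.6 FPKM, 1.45-fold lower (1.28 to 1.65). None of the 35 reached 2-fold, against 1.62% of all genes compared called higher and 1.98% called lower.

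Other proteins of the lysosomal membrane were as evenly divided as Lamp1 and Lamp2, with 14 ratios above 1 and 11 below over 25 genes and a median of 0.02. The tetraspanin Cd63 was at 5.37 and 6.07 FPKM. Cd68, a LAMP relative of macrophages, stood at 14.01 and 11.2 FPKM, which is a ratio of 1.26 (0.971 to 1.62). The lowest ratios were those of the cation channel Mcoln2, at 5.75 and 10.7 FPKM and 1.87-fold lower (1.51 to 2.33), and of Cln3, a membrane protein mutated in a neuronal storage disease, at 10.1 and 17.7 FPKM and 1.75-fold lower (1.49 to 2.08). Assembly and partner proteins of the V-ATPase had 7 ratios above 1 and 4 below. Among them the assembly factor Vma21 was at 7.43 and 6.77 FPKM, Dmxl1, of the complex that rejoins V1 and V0, at 1.11 and 1.26 FPKM, and Rogdi, of the same complex, at 11.8 and 7.84 FPKM, which is a ratio of 1.501 (1.14 to 1.98).

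The list drawn up as cathepsin inhibitors had the lowest median of the 6 lists of other lysosome genes, at -0.29. It includes serpins as well as cystatins, and whether its serpins act on the cathepsins described here was not examined. Of its 10 compared genes 2 had ratios above 1 and 8 below. Those above were the serpins Serpinb1a, at 8.44 and 5.66 FPKM with a ratio of 1.49 (1.14 to 1.94), and Serpinb9, at 15.3 and 14.9 FPKM. Ctla2b was at 2.48 and 4.995 FPKM. Cystatin F (Cst7), which enters lysosomes and restrains cathepsin C in cytotoxic cells, reached 149 FPKM in the probucol and 204 FPKM in the untreated library, 1.37-fold lower (1.27 to 1.48). Cystatin B (Cstb), a cytosolic inhibitor, was at 139 and 175 FPKM, 1.26-fold lower (1.13 to 1.42). Cystatin C (Cst3), the secreted form, stood at 191 and 206 FPKM, which is a ratio of 0.927 (0.858 to 1.003). Stfa3 was called lower at 1.48 and 4.90 FPKM, with an estimated 3 fragments in the probucol library. The sums of the cathepsins and of this list thus leaned the same way, 1156 and 1290 FPKM for the proteases and 553 and 673 FPKM for the list, serpins included.

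Genes that carry enzymes to the lysosome leaned the other way, with 11 ratios above 1 and 3 below over 14 genes and a median of 0.15. The cation-dependent mannose 6-phosphate receptor M6pr, which delivers newly made cathepsins, stood at 170 and 173 FPKM, which is a ratio of 0.979 (0.937 to 1.02). The larger receptor Igf2r stood at 7.39 and 6.03 FPKM, which is a ratio of 1.23 (1.09 to 1.38). Gnptab, which starts the mannose 6-phosphate tag, stood at 8.49 and 6.35 FPKM, which is a ratio of 1.34 (1.16 to 1.55), and Nagpa, which uncovers the tag, at 38.7 and 30.0 FPKM, which is a ratio of 1.29 (1.16 to 1.44). Gnptg, another subunit of the enzyme that starts the tag, was at 56.2 and 55.5 FPKM with a ratio of 1.01 (0.901 to 1.14), so the tagging genes were not all higher. None of the 14 sorting genes reached 2-fold, against 1.62% of all genes compared called higher and 1.98% called lower.

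**Figure D5:**
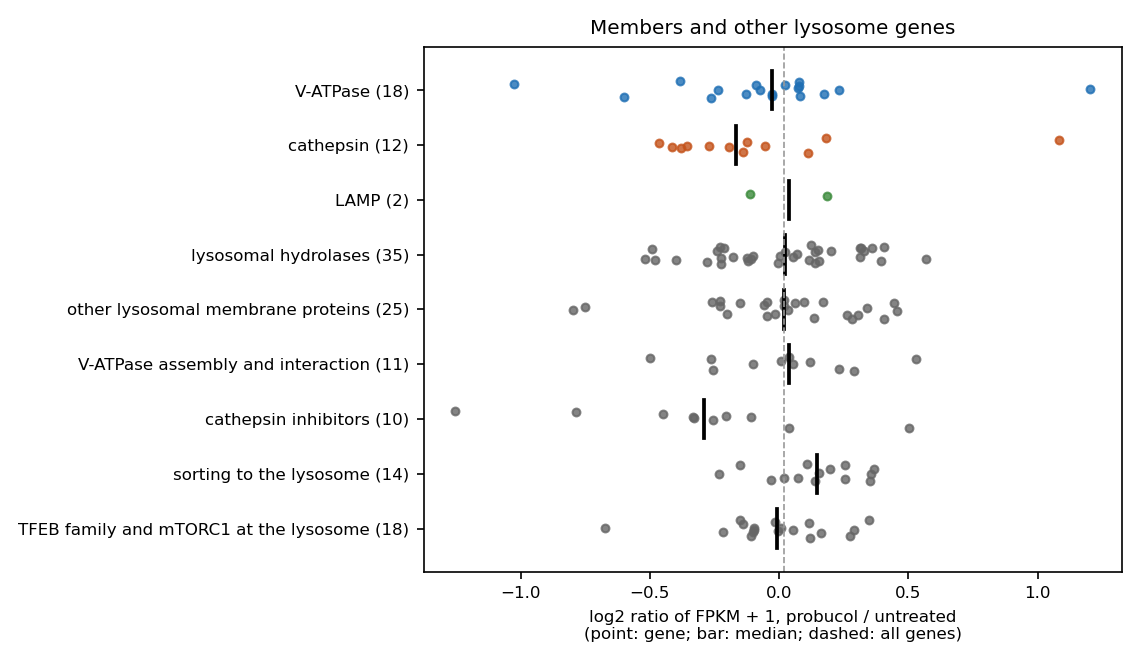
Log2 ratio of FPKM plus 1, probucol over untreated, for each gene compared in the member groups (colour) and in 6 lists of other lysosome genes (gray), with each median as a black bar and the median of all genes compared as a dashed line. Cathepsins (median -0.17) and the cathepsin inhibitor list (-0.29) lie left of the dashed line and the sorting genes (0.15) right of it, while the other lists straddle it.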

How the data were processed

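RNA of sorted splenic CD4+ T cells of mice (day 14) was made into full-length cDNA with a SMART-Seq HT kit and into Nextera libraries, per the labels' protocols. The deposited values were FPKM per gene symbol, per the file headers. The submitters' processing notes name TopHat2 2.1.1, Bowtie2, Cuffdiff 2.2.1 and the mm10 build, without role or order, and the annotation was not given in the sources used here. Groups came from the treatment label, with 1 library in each of 2 groups, so no test and no leaving out of a replicate was possible.

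Symbols with a mean of at least 1 FPKM were compared as the log2 of the ratio of FPKM plus 1, and 2-fold was the call. Multiples in the low values gave the worth of 1 fragment: of 1617 and 3151 low values, 73.7% and 74.9% were whole to within 0.1, where even spacing gives 20%. Exact (Clopper-Pearson) 95% intervals of the ratio use fragments estimated from these steps and from GENCODE M21 transcript lengths (GRCm38), and cover counting error only. The fragment numbers are estimates, since the authors' lengths are not known. The scripts, run in python 3.11.15 with numpy 2.4.6, pandas 2.3.3, scipy 1.17.1 and matplotlib 3.10.9, were tested on simulated data. Gene positions came from GENCODE M21 and promoters from RefSeq (GRCm38.p6).

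All members could be named. Folds with intervals were given for members with a mean of at least 10 FPKM, past 2-fold or near the floor, and other values for completeness. From each list of other lysosome genes, the named ones were fixed genes and up to 3 with the largest log2 ratio in either direction. Cst7, Gnptg and Serpinb9 were named outside that rule. Members and lists were chosen with earlier results of these data known. Alternatives were the pseudocount, the floor, the scaling and the leaving out of predicted symbols; taking Atp6v0c and its pseudogene as 1 gene was added after seeing the data.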

Additional observations from a re-analysis of the deposited data

How the results depend on the processing

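Of the 10663 genes compared, 173 were at least 2-fold higher with probucol and 211 lower. These counts were 313 and 357 with a pseudocount of 0.1, 55 and 64 with a pseudocount of 5, and 83 and 96 with a floor of 5 FPKM, and they stayed within 1.5 times with the other settings. Atp6v0c, Ctsl and Atp6v0d2 were past 2-fold with a pseudocount of 0.1, no floor, either rescaling and without predicted symbols; with a pseudocount of 5 only Atp6v0c was, and with a floor of 5 FPKM Atp6v0c and Ctsl. With Atp6v0c and Atp6v0c-ps2 as 1 gene, an alternative chosen after seeing the data, the log2 ratio was 0.08 from summed FPKM and 0.58 from summed fragments, against 1.204 for Atp6v0c as deposited. The median of the V-ATPase genes was 0.05 with no floor and -0.03 as reported. No paired analysis was possible because each group had 1 library. With 1 library per group, spread between animals is unmeasured, and depth limits Atp6v0d2, Atp6v1g2, Ctsf and all members under 1 FPKM.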
